A study of Mus musculus with 4 samples.

Results

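The comparison described here is that between a TNF-treated and a control library of mouse embryonic fibroblasts (MEFs) labelled Mll1-/-. Mll1, now called Kmt2a, encodes a histone H3 lysine 4 methyltransferase. Members were all transcript entries with 1 RPKM or more (reads scaled to transcript length and library total) in at least 1 of these 2 libraries, with 1 entry kept per gene symbol. This left 13891 genes and unnamed entries of the 23005 in the table, 10734 of them with a symbol. The study has 4 libraries: cells of wild type (Mll1+/+) and cells labelled Mll1-/-, each given control medium or TNF at 10 ng/ml for 4 hr. All 4 groups were grown in the same serum-containing medium, and each library is a mixture of the cells of 3 independent treatments. The labels give neither the deleted part of the gene nor the number of lines or clones, nor the embryonic stage. With 1 library per group there is no replicate spread, so every difference is a description and carries no p-value.

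TNF binds receptors whose adaptors and ubiquitin ligases activate the IkB kinases. These release NF-kB, a family of dimeric transcription factors, to the promoters of chemokine, adhesion and survival genes. Among the targets are the pathway's own inhibitors, which limit the response. In fibroblasts the response recruits leukocytes and alters the matrix, and the comparison addresses how much of it is present in cells labelled as lacking Mll1.

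The targeted gene does not check the genotype labels. Kmt2a stood at 1.85 RPKM in the wild-type control library, 2.11 in wild type with TNF, 2.02 in the Mll1-/- control and 1.66 in Mll1-/- with TNF. It was thus not lower in the Mll1-/- control library than in wild type. The value covers the whole transcript of 16439 bases, and with the deleted part not given it neither bears out nor contradicts the label. All directions below are for the libraries labelled Mll1-/-. Read totals recovered from the RPKM values were 20081869 (control) and 19306506 (TNF) in the Mll1-/- pair, against 27728647 and 27977248 for wild type. Of 12 fibroblast markers in the table, 11 were measured at 1 RPKM or more, with Vim at 2177 and 2097 RPKM and Col1a1 at 337 and 295 RPKM without and with TNF. Of 11 macrophage and leukocyte markers only Cd14 reached 1 RPKM (9.28 and 11.9), and the macrophage markers Csf1r (1 and 0 reads), Fcgr1 (0 and 0) and Spi1 (0 and 1) were at or near 0. The summed level of the 11 was 9.78 RPKM in the control and 12.7 with TNF, nearly all of it Cd14. In mixed cell populations such as these, fewer cells expressing a gene and less RNA per cell cannot be told apart.

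The libraries differed in their relation of level to transcript length, which touches every result below. All members were divided into 10 classes of equal size by transcript length. In the Mll1-/- control library, those of the shortest class summed to 306887 RPKM, against 374076 in Mll1-/- with TNF and 437178 and 435538 in the wild-type pair. For the longest class the order was reversed, with 21376 RPKM in the Mll1-/- control, 18673 with TNF, and 17505 and 17953 in wild type. In both classes the Mll1-/- TNF library lay between the Mll1-/- control and the wild-type pair. Each log2 ratio is therefore followed, where it matters, by its value with the length trend removed, which is the ratio minus a smoothed curve of ratio on log length. Ratios are of RPKM + 0.5, a scale on which the change of genes near 0 is understated. Intervals are 95% exact binomial (Clopper-Pearson) intervals on the recovered reads. They reflect counting error alone, and without molecular identifiers the reads are not independent molecules.

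With TNF, 97 of 13891 genes and unnamed entries (0.698%) were higher by a log2 ratio of 1 or more, and 20 (0.144%) were lower by as much. The named genes among the higher ones include those of chemokines, feedback regulators of NF-kB, the death receptor Fas, the leukocyte adhesion molecule Vcam1, innate receptors and metallothioneins. They also include 2 nuclear genes listed for the respiratory chain, Uqcr11 and Cox17. Nearly all other genes lay close together: the median log2 ratio was 0.02 and the middle 95% ran from -0.45 to 0.74, against -0.35 to 0.44 for the same genes in wild type. With the length trend removed the counts were 59 higher (0.425%) and 51 lower (0.367%), and the middle 95% ran from -0.56 to 0.54. Named genes other than predicted genes, clones and small RNAs made up 37 of those 59 and 1 of those 51. At 3 RPKM or more in the higher library they numbered 28 and 0. The split of higher against lower also depends on scaling. Leaving the 20 most abundant genes out of the library total rescaled the comparison by -0.16 on the log2 scale, moved the median to -0.13, and gave 70 higher and 30 lower. Medians of gene lists are therefore read against the median of all members, and lists within that distance of 0 are given no direction.

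The higher set is a mixture of well-measured genes and of very short or thinly covered entries. Of the 97, 45 are genes other than predicted genes, clones and small RNAs, and the counting interval of the ratio excluded 1 for all 45. The other 52 comprise 27 unnamed entries and 25 predicted genes, clones or small RNAs. Fewer than 30 reads in the 2 libraries together lay behind 34 of the 97, and 53 belonged to the shortest length class, against 0 in the longest. Their median length was 491 bases, compared with 2345 for all members. Restricting to the 45 and to 3 RPKM or more in the higher library left 34 genes with a median length of 1426.5 bases, of which 26 stayed at 1 or more with the length trend removed. The 20 lower entries were 8 unnamed entries and 12 predicted genes, clones or small RNAs. Of them 18 had fewer than 30 reads and only 7 had an interval that excluded 1.

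**Figure D1:**
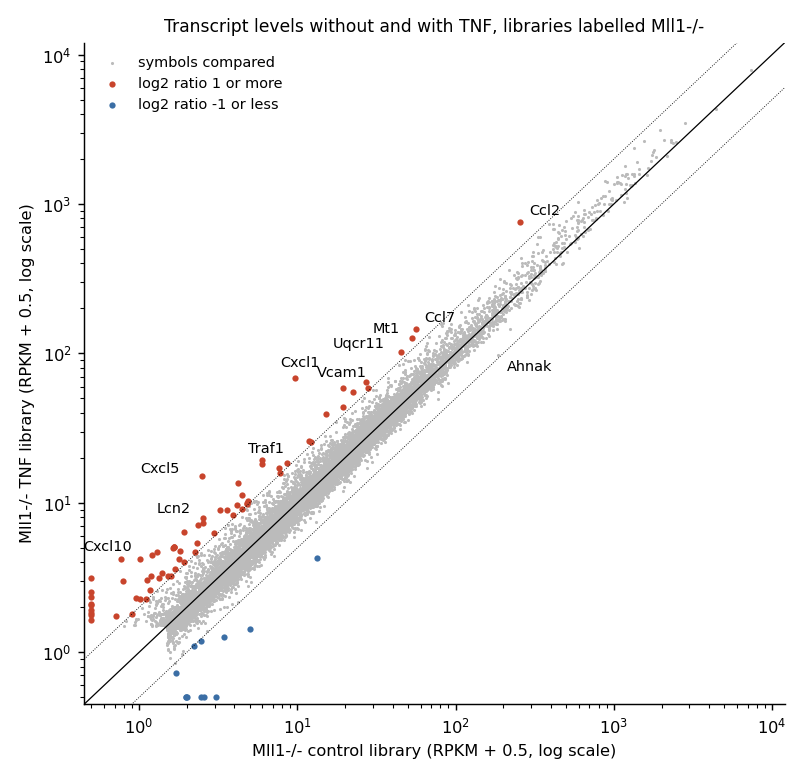
Level of each gene symbol in the TNF library (vertical) against the control library (horizontal) of cells labelled Mll1-/-, both as RPKM + 0.5 on log axes. The solid line marks equal levels and the dotted lines a log2 ratio of 1 and -1. Chemokines such as Cxcl1 (9.14 to 68.0 RPKM) and Ccl2 (255 to 752 RPKM) lie above the upper line, while Ahnak (184 to 96.8 RPKM) lies just inside the lower one.

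Chemokines are secreted proteins that draw leukocytes along a gradient. Cxcl1 and Cxcl5 had the highest log2 ratios of all genes with more than 30 reads in the pair. That scale understates the change of genes near 0, and the fold ratio of the CC chemokine Ccl20 was larger (8.53-fold on 5 and 41 reads). Cxcl1, a neutrophil attractant, stood at 9.14 RPKM in the Mll1-/- control and 68.0 with TNF (177 and 1265 reads), a 7.43-fold ratio with an interval of 6.35 to 8.75. Cxcl5, which binds the same receptor, Cxcr2, went from 1.99 to 14.6 RPKM, 7.33-fold (5.65 to 9.63). In both genes the wild-type libraries were higher than the corresponding Mll1-/- library, at 18.6 and 320 RPKM for Cxcl1 and 24.99 and 338 RPKM for Cxcl5. Cxcl10, which attracts activated T cells through Cxcr3, was at 0.703 and 4.00 RPKM, 5.69-fold on 15 and 82 reads (3.26 to 10.6). Unlike the other 2, Cxcl10 lay in the same low range in wild type, at 0.407 and 5.38 RPKM. Each of the 3 had the highest log2 ratio among named and unnamed entries of its own length class: Cxcl1 ranked 1 of 1387, Cxcl5 1 of 1392 and Cxcl10 1 of 1389 in their classes. The fourth measured member, Cxcl12, a homeostatic chemokine of stromal cells, was at 90.8 RPKM in the control and 81.1 with TNF (log2 -0.16), while both wild-type libraries held less than 1 RPKM (0.672 and 0.438). The other 7 CXC members in the table were under 1 RPKM in both Mll1-/- libraries.

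The promoters of Cxcl1 and Cxcl10 are shown because these genes head the response and carry matches to the kB consensus, the 10-base sequence family that NF-kB dimers bind. Sequences are from RefSeq promoters on GRCm38.p6, from 250 bases before to 50 after the start site, 5′ to 3′ on the gene's strand. Cxcl1 is at chr5:90890995-90891294 on the plus strand and Cxcl10 at chr5:92348840-92349139 on the minus strand. Capitals mark matches on either strand, merged where they overlap.
Cxcl1: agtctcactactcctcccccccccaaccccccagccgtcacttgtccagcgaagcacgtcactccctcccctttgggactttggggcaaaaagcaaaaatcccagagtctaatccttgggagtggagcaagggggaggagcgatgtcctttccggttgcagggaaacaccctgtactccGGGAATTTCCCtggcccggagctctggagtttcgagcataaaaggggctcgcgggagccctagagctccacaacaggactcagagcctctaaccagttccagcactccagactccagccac
Cxcl10: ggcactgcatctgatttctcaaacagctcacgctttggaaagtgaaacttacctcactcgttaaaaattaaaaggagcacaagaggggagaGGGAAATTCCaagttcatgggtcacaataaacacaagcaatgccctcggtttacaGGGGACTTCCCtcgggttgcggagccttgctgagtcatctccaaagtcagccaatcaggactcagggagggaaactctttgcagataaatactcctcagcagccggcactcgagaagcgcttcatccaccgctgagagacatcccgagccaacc
Cxcl1 holds 2 overlapping matches, the first beginning at -71 from the start site. Cxcl10 holds 3, of which 1 begins at -159 and the other two overlap from -104. The kB consensus was found in 8.46% of all 32851 promoters in the table and in the promoters of 1026 of 8335 compared genes (12.3%). Of the 34 named higher genes with 3 RPKM or more, 26 have a promoter there and 11 of these hold a match (42.3%). Those 11 are Cxcl1, Cxcl10, Tnip3, Tlr2, Nfkbia, Casp4, Lif, Tnip1, Nfkbie, Ier3 and Bcl3. No match lay in the windows of Fas, Lcn2, Traf1, Ikbke or Mmp13, which says only that these letters are absent from 300 bases. A match is a description and not a binding site, and nothing in these libraries measured binding.

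Among the CC chemokines, which mainly recruit monocytes and lymphocytes, 3 of 7 measured genes were higher by the same rule, and all 7 had a ratio above 0. Ccl2, the main monocyte attractant, was by far the most abundant, at 255 RPKM in the control and 752 with TNF, a 2.95-fold ratio on 4134 and 11705 reads (interval 2.84 to 3.05). Ccl7, its neighbour on chromosome 11 with no coding gene between, went from 55.4 to 144 RPKM (2.60-fold, 2.42 to 2.80). Ccl2 was above Ccl7 in all 4 libraries, and both were lower in the Mll1-/- libraries than in the wild-type library of the same treatment (434 and 1643 RPKM for Ccl2). Ccl20, which attracts cells bearing Ccr6, was at 0.292 RPKM (5 reads) and 2.49 RPKM (41 reads), 8.53-fold with a wide interval of 3.37 to 27.7. The remaining members were lower in ratio: Ccl9 was at 9.34 and 17.5 RPKM (log2 0.87), and the membrane-bound chemokine Cx3cl1 at 12.2 and 19.2 RPKM (0.63). The median of the 7 was 0.87, or 0.90 with the length trend removed, against 0.02 over all members.

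**Figure D2:**
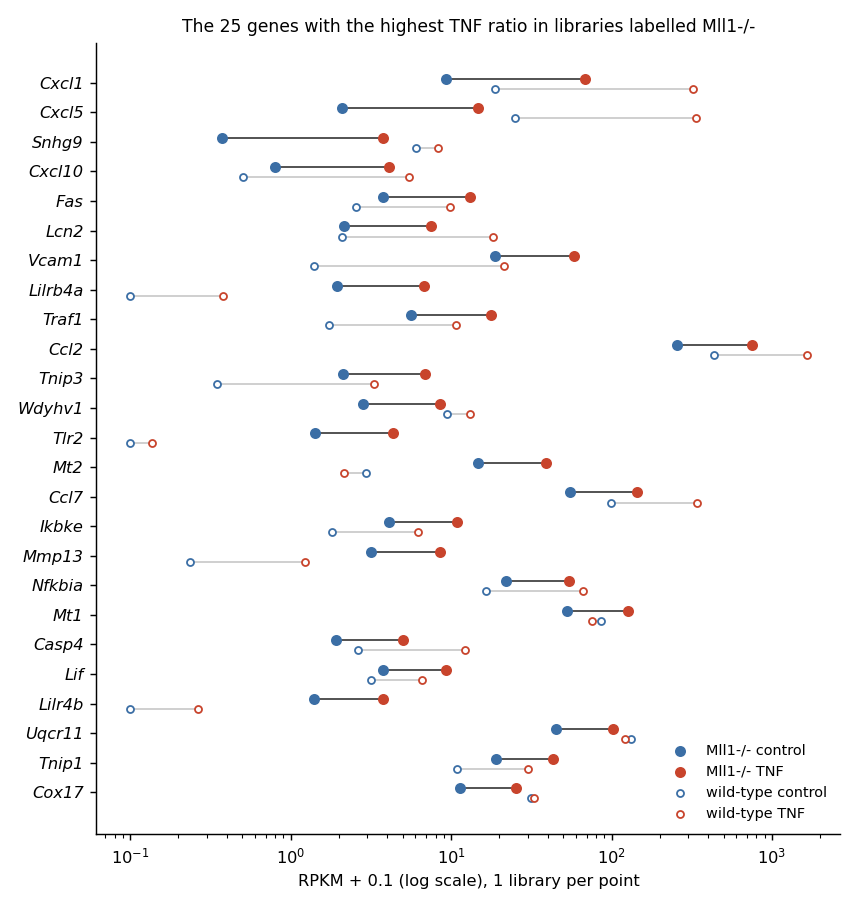
Levels of the 25 genes with the highest log2 ratio among named genes at 3 RPKM or more, as RPKM + 0.1 on a log axis, 1 library per point. Filled points are the Mll1-/- control (blue) and TNF (red) libraries and open points the wild-type pair. For Cxcl1, Cxcl5, Ccl2, Ccl7, Casp4, Wdyhv1, Snhg9, Cox17 and Uqcr11 each open point lies to the right of the filled point of the same treatment. For Vcam1, Fas, Traf1, Tnip1, Tnip3, Ikbke, Lif, Mmp13, Tlr2, Lilrb4a, Lilr4b and Mt2 each open point lies to the left. For Mt1, Mt2 and Uqcr11 the open points run the other way, with TNF to the left of control.

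The NF-kB system itself was higher at several levels, most of all in its inhibitors. Nfkbia, which encodes IkB-alpha and is resynthesised after each activation, stood at 21.8 RPKM in the control and 54.3 with TNF, 2.49-fold (interval 2.28 to 2.72). Nfkbie, encoding IkB-epsilon, went from 8.08 to 18.03 RPKM (2.23-fold, 1.98 to 2.52), and Bcl3, an atypical IkB protein that acts in the nucleus, from 1.76 to 4.21 RPKM (2.38-fold, 1.77 to 3.24). With the length trend removed Bcl3 fell just short of the size rule (log2 1.06 against 0.97). Among the subunits, Relb was at 7.68 and 14.8 RPKM (log2 0.90), Nfkb2 at 45.7 and 74.7 RPKM (0.70), Nfkb1 at 32.6 and 47.5 RPKM (0.53), Rela at 30.1 and 36.7 RPKM (0.29) and Rel at 2.10 and 2.08 RPKM (-0.01). The order from Relb and Nfkb2, the subunits of the non-canonical pathway, down to Rela and Rel held also with the length trend removed (0.86, 0.73, 0.63, 0.29 and 0.20). Of 10 measured subunits and inhibitors 3 were higher and 0 lower by the size rule, 9 had a ratio above 0, and the median was 0.84. With the 20 most abundant genes dropped from the scaling, 1 of the 3, Nfkbia, was still past the rule and the median was 0.69, with 9 still above 0.

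Upstream of NF-kB, the adaptors and ubiquitin regulators divided into a few higher genes and a large remainder that differed little. Traf1, an adaptor of TNF receptors, was at 5.50 RPKM and 17.6 RPKM (3.20-fold, interval 2.78 to 3.70). Of the 3 A20-binding inhibitors, Tnip3 went from 2.02 to 6.79 RPKM (3.36-fold, 2.80 to 4.05) and Tnip1 from 18.9 to 43.3 RPKM (2.29-fold, 2.13 to 2.46). The third, Tnip2, was at 3.88 and 3.74 RPKM (log2 -0.04). Ikbke, an IkB kinase relative that acts in interferon induction, was at 3.98 and 10.9 RPKM (2.73-fold), and the ubiquitin ligase gene Birc3 at 1.02 and 2.74 RPKM (2.67-fold). These 5 of 28 measured genes were higher by the size rule, both as deposited and with the length trend removed, but with the 20 most abundant genes dropped from the scaling 4 were, without Birc3. Tnfaip3, which encodes A20 itself, was below it at 5.56 and 9.57 RPKM (log2 0.73), as was the RNase gene Zc3h12a at 3.16 and 6.56 RPKM (0.95). The median over the 28 was 0.06, with Tab2 (41.6 and 34.8 RPKM, -0.25) and the adaptor Tifa (3.15 and 2.63 RPKM, -0.22) lowest.

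The promoters of Nfkbia and Tnip1 are shown as examples from the inhibitors, chosen after their matches were seen. Nfkbia is at chr12:55492598-55492897 and Tnip1 at chr11:54962891-54963190 (RefSeq, GRCm38.p6, both on the minus strand), with kB matches in capitals.
Nfkbia: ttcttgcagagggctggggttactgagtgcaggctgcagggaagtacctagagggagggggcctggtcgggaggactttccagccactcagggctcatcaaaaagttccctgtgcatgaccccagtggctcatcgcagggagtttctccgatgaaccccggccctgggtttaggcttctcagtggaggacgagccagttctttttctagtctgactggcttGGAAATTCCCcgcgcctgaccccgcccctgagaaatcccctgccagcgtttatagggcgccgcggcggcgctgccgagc
Tnip1: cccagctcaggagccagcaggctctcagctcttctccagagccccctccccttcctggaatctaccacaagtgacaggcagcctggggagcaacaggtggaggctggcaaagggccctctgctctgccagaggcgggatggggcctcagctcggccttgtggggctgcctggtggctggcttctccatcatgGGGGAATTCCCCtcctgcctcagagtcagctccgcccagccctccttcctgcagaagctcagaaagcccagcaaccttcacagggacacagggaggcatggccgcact
Nfkbia holds 1 match at -29 in this window. Tnip1 holds 3 that overlap in one palindromic stretch from -58.

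Among the receptors and the death and survival genes, 3 were past the size rule. Tnfrsf1a and Tnfrsf1b, the receptors for TNF, were at 36.0 and 32.0 RPKM (log2 -0.17) and at 27.3 and 28.7 RPKM (0.07). Tnfrsf1b was far lower in both wild-type libraries (1.97 and 2.46 RPKM), so the libraries of the 2 genotypes differed in this receptor with and without TNF. Fas, a receptor that triggers apoptosis, was at 3.69 and 13.0 RPKM, a 3.53-fold ratio (interval 2.84 to 4.40), and was the 1 of 12 measured receptors of the family past the size rule. Of 23 death and survival genes 2 were past it: Casp4, a caspase that senses bacterial lipopolysaccharide, at 1.81 and 4.92 RPKM (2.72-fold), and the survival gene Ier3 at 27.5 and 58.4 RPKM (2.13-fold). Ier3 was under the rule with the length trend removed (log2 1.07 against 0.88) and with the 20 most abundant genes dropped from the scaling. Next below the rule were Gadd45b (10.5 and 19.2 RPKM, 0.85) and the receptor Tnfrsf9 (1.58 and 3.06 RPKM, 0.78). Bcl2 (5.24 and 3.51 RPKM, -0.52) and Bcl2l1 (41.0 and 29.9 RPKM, -0.45), which oppose mitochondrial apoptosis, were the lowest of the list, whose median was 0.03.

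Adhesion and cell-surface genes followed a similar pattern. Vcam1, a ligand of leukocyte integrins, stood at 18.8 RPKM in the control and 58.3 with TNF (1283 and 3825 reads), 3.10-fold with an interval of 2.91 to 3.31. The Mll1-/- control library thus held nearly as much Vcam1 as wild type with TNF (21.3 RPKM), and the wild-type control only 1.31 RPKM. Of 18 measured adhesion genes, Vcam1 was the only one past the size rule. The next were the tetraspanins Cd82 (23.3 and 36.0 RPKM, log2 0.62) and Cd9 (105 and 155 RPKM, 0.56), and the lowest was Ncam1 (7.96 and 5.54 RPKM, -0.49). Icam1, another integrin ligand, was listed at 0 in both control libraries and had 6 reads with TNF in Mll1-/- (10 in wild type), under the 1 RPKM needed to be a member.

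Tlr2 and a pair of immunoglobulin-like receptors were measurable in the Mll1-/- pair, although wild type had almost no reads of them. Tlr2, the receptor for bacterial lipoproteins, was at 1.32 RPKM in the control and 4.27 with TNF (76 and 237 reads), 3.24-fold with an interval of 2.50 to 4.26, against 0 and 3 reads in wild type. Lilrb4a, an inhibitory immunoglobulin-like receptor, was at 1.86 and 6.64 RPKM (53 and 182 reads; 0 and 11 in wild type). Its neighbour Lilr4b on chromosome 10 was at 1.30 and 3.69 RPKM, and close copies in this family may share reads. Of the 34 named higher genes with 3 RPKM or more, these 3 were the ones under 1 RPKM in both wild-type libraries. Lilrb4a and Lilr4b are best known from myeloid cells. Of the 11 macrophage and leukocyte markers in the table only Cd14 reached 1 RPKM, as given above. Which cells gave the reads of these receptors was not tested. Tlr2 was the 1 of 14 measured Toll-like receptor and adaptor genes past the rule. Nod2, a cytosolic sensor of bacterial peptidoglycan, reached it only with the length trend removed (0.722 and 1.78 RPKM, log2 0.90 and 1.02), and the median was -0.04. Cd14, of the same list, was instead lower in the Mll1-/- pair (9.28 and 11.9 RPKM) than in wild type (23.2 and 25.6 RPKM).

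Secreted defence proteins, cytokines and proteases contributed a few genes each. Saa3, an acute-phase apolipoprotein, had 0 reads in the control and 27 with TNF, which makes it at least 9.36-fold higher when the 0 is read as up to 3 reads. Lcn2, which withholds iron from bacteria, was at 2.04 and 7.41 RPKM (3.63-fold, interval 2.47 to 5.44). Slpi, a secreted protease inhibitor, was at 43.3 and 83.3 RPKM (log2 0.94) although the wild-type pair held 1.53 and 4.12 RPKM. Only 6 of the 24 acute-phase and defence genes in the table reached 1 RPKM, 2 of them higher by the rule, with a median of 0.69 that does not depend on the value given to Saa3. Of 22 cytokines and growth factors, Lif (3.67 and 9.25 RPKM, 2.52-fold) and Il6 (1.10 and 2.76 RPKM, 2.51-fold on 24 and 58 reads), both of the family that signals through gp130, were past the rule. Il6 was not with the length trend removed (0.84), nor under upper-quartile scaling or with the 20 most abundant genes dropped from it. Next came the EGF receptor ligand Areg (7.72 and 13.95 RPKM, 0.81), while Fgf2 (2.72 and 1.79 RPKM, -0.49) and Kitl (76.4 and 55.0 RPKM, -0.47) were lowest.

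Among 19 matrix metalloproteinases and inhibitors 1 was past the rule, Mmp13, an interstitial collagenase, at 3.09 and 8.48 RPKM (2.74-fold, interval 2.29 to 3.30). The stromelysins Mmp10 (19.2 and 36.4 RPKM, log2 0.91) and Mmp3 (24.98 and 42.5 RPKM, 0.75) came next among abundant members, Timp3 was at 251 and 203 RPKM (-0.30), and the median was 0.06. Of 12 genes for plasminogen activation and coagulation, Serpinb2, an inhibitor of urokinase, was past the rule at 2.45 and 5.76 RPKM (2.35-fold), though not with the 20 most abundant genes dropped from the scaling. Of the 33 measured collagen and matrix genes 0 were past the rule, with a median of -0.05 (0.05 with the length trend removed), and 13 of 33 had a ratio above 0 (26 of 33 with the trend removed). Dcn, a collagen-binding proteoglycan, was highest at 9.16 and 15.2 RPKM (0.70) and Thbs1 lowest at 161 and 130 RPKM (-0.31).

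Several lists known from other inflammatory settings had few or no genes past the rule. Of 19 measured interferon-stimulated genes 2 were higher, Gbp2 (0.685 and 2.75 RPKM, 4.01-fold on 34 and 131 reads) and Bst2 (0.403 and 1.32 RPKM on 7 and 22 reads), and 38 others of the list were under 1 RPKM in both libraries. Bst2, at log2 1.01, lost its call under each of the 3 other scalings and with the length trend removed (0.79). All 17 measured genes of MHC class I presentation and the immunoproteasome had a ratio above 0, none past the rule, led by H2-T23 (5.56 and 10.7 RPKM, log2 0.89) and B2m (218 and 364 RPKM, 0.74). Their median of 0.31 became 0.19 with the length trend removed, with 15 of 17 still above 0, and with the 20 most abundant genes dropped from the scaling 12 were. Of all members, 53.1% had a ratio above 0 (49.6% with the trend removed). Among 19 cytokine receptors 0 were past the rule, and the chains of the interferon-gamma receptor, Ifngr2 (21.6 and 35.3 RPKM, 0.70) and Ifngr1 (46.3 and 67.9 RPKM, 0.55), were among the highest. Gch1, the first enzyme in making the nitric oxide synthase cofactor tetrahydrobiopterin, was at 0.450 and 1.82 RPKM (4.04-fold on 25 and 97 reads) and was the 1 of 8 measured genes of that pathway past the rule. None of 21 immediate-early genes, 25 signalling phosphatases, 8 prostaglandin genes, 32 antioxidant genes or 10 complement genes was past it. The closest among them were the transcription factor Cebpd (6.08 and 11.3 RPKM, 0.85) and the mitochondrial superoxide dismutase Sod2 (16.9 and 29.2 RPKM, 0.77). Sod2 had the highest ratio among named genes of the longest length class, 0.93 with the trend removed.

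**Figure D3:**
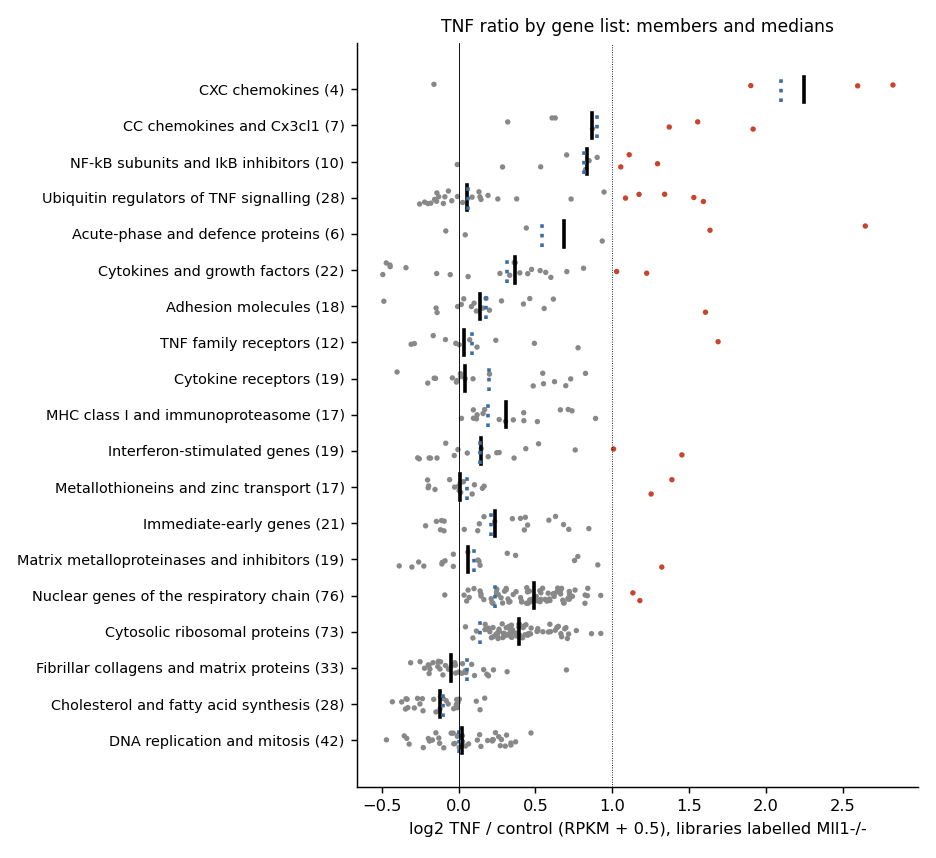
Log2 TNF/control ratios (RPKM + 0.5) in the libraries labelled Mll1-/- for the measured members of 19 gene lists, with the number measured in brackets. Points are genes (red at 1 or more, height within a row random), black bars list medians and blue dotted bars medians with the length trend removed. The chemokine and NF-kB lists have medians of 0.84 to 2.25, and the ribosomal protein and respiratory chain lists, at 0.39 and 0.49, move to 0.14 and 0.24 without the trend.

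The metallothionein genes, whose small products bind zinc and copper, were higher in the Mll1-/- pair and not in the wild-type pair. Mt1 stood at 52.4 RPKM in the Mll1-/- control and 126 with TNF (614 and 1415 reads), 2.40-fold with an interval of 2.18 to 2.64, while the wild-type libraries held 86.4 and 75.3 RPKM. Mt2 was at 14.6 and 39.0 RPKM (163 and 419 reads), 2.67-fold (2.23 to 3.22), and at 2.85 and 2.06 RPKM in wild type. The 2 genes adjoin on chromosome 8 with no coding gene between. Both transcripts are short (583 and 556 bases) and lie in the length class that was higher as a whole, where Mt2 ranked 25 and Mt1 31 of 1392. With the length trend removed the log2 ratios went from 1.39 to 1.10 for Mt2 and from 1.25 to 0.97 for Mt1. The other 15 measured genes of the list, zinc transporters and the metal-sensing factor Mtf1, lay between -0.20 and 0.17, with Slc30a1, a zinc exporter regulated by the same factor, at 3.55 and 3.02 RPKM (-0.20).

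The promoters of Mt1 (chr8:94178839-94179138) and Mt2 (chr8:94172368-94172667) are shown because Mtf1 acts through metal response elements, repeated near the start sites of these genes. Sequences are from RefSeq on GRCm38.p6, plus strand. Capitals mark the core searched, TGCACNC or TGCGCNC on either strand.
Mt1: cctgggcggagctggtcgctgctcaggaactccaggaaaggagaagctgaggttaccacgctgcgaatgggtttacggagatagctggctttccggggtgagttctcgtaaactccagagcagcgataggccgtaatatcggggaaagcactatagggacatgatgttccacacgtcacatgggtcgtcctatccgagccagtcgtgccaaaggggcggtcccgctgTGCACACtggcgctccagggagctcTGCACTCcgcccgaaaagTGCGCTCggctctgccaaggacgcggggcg
Mt2: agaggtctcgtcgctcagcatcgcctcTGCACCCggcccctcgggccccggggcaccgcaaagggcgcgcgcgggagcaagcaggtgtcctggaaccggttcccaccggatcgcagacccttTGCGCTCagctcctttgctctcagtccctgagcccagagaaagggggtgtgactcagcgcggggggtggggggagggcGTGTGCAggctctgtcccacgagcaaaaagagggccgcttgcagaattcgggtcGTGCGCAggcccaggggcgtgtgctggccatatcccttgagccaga
Mt1 holds 3 matches and Mt2 holds 4, with no kB match in either window. At least 1 core lies in 25.7% of all promoters in the table and 3 or more in 1.97%. Among promoters of the genes compared the shares are 36.1% and 3.14%.

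Genes of the ribosome and the respiratory chain, most of them short, had ratios above 0 almost throughout. All 73 measured cytosolic ribosomal protein genes had a ratio above 0, with a median of 0.39 and none past the size rule. So did 75 of 76 nuclear genes of the respiratory chain, with a median of 0.49 and 2 past it. With the 20 most abundant genes, some of them ribosomal, dropped from the scaling, 70 and 67 were above 0. Those 2 were Uqcr11, a small subunit of complex III, at 44.7 and 102 RPKM (2.28-fold, interval 2.02 to 2.58), and the copper chaperone Cox17 at 11.3 and 25.4 RPKM (2.25-fold, 1.76 to 2.88). Both are 436 bases long, and with the length trend removed they were at 0.85 and 0.81. The list medians were then 0.14 and 0.24, with 66 of 73 ribosomal and 71 of 76 respiratory genes still above 0. Of all members, 53.1% had a ratio above 0 as deposited and 49.6% with the trend removed. The wild-type medians over the same ribosomal and respiratory genes were -0.04 and -0.07. Within each list the shorter genes had the larger ratio: under 700 bases the median was 0.47 for ribosomal and 0.59 for respiratory genes, and at 700 bases or more 0.33 and 0.31.

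Across the 4 libraries these genes were lowest in the Mll1-/- control, not highest in the TNF library. Relative to each gene's own mean log2 level, ribosomal protein genes had medians of 0.30 and 0.23 in the wild-type pair, -0.47 in the Mll1-/- control and -0.06 in Mll1-/- with TNF. In 72 of 73 the Mll1-/- control was the lowest library, and in 71 the Mll1-/- TNF library lay between it and wild type. For the respiratory chain the medians were 0.25, 0.17, -0.44 and -0.01, with 71 of 76 lowest in the Mll1-/- control and 58 with the TNF library between it and wild type. Rps21, a small-subunit protein, was the highest ribosomal gene in ratio, at 387 and 735 RPKM (log2 0.93). A TNF effect and a property of the 1 control library cannot be told apart here, because each condition is 1 library.

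**Figure D4:**
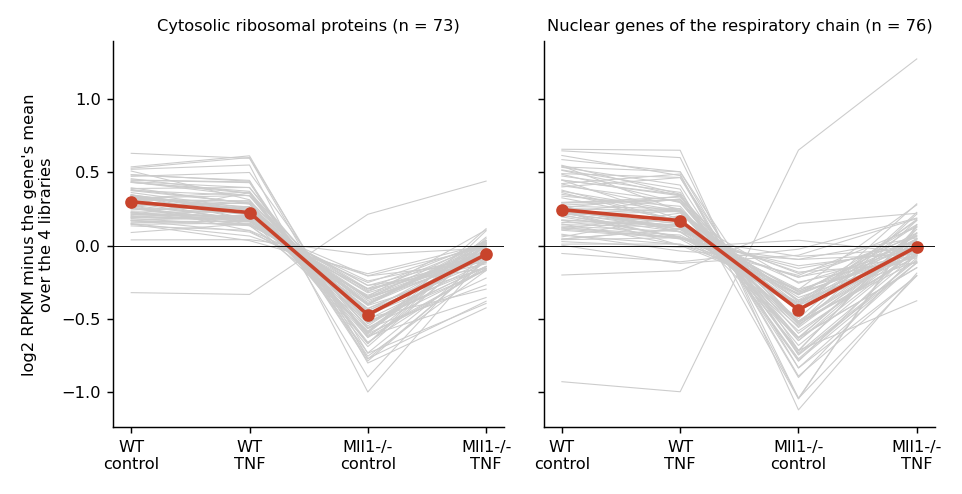
Log2 RPKM of each gene minus that gene's mean over the 4 libraries, for 73 ribosomal protein genes (left) and 76 respiratory chain genes (right). Grey lines are genes and the red line the median. The Mll1-/- control library is lowest in both panels (-0.47 and -0.44), and the Mll1-/- TNF library lies between it and the wild-type pair.

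The dependence on length ran through the whole comparison. Over the 10 length classes from shortest to longest, the median log2 ratio went from 0.33, 0.22, 0.18 and 0.11 through 0.07, 0.01 and -0.04 to -0.08, -0.13 and -0.20, a span of 0.527. The share of members with a ratio above 0 was 81.0% in the shortest class and 11.5% in the longest. In wild type the medians of the same classes stayed between -0.05 and 0.03. Among the 7537 members with 1000 reads or more the span was 0.567, so it was as large where counting error is small. The trend affects which genes pass the size rule but not the leading chemokines. In 9 of the 10 classes the highest named gene was at 1.01 or more: Saa3, Cxcl1, Cxcl10, Cxcl5, Traf1, Gbp2, Vcam1, Tnip3 and, in the ninth, Pik3r5. Pik3r5, a regulatory subunit of a phosphoinositide 3-kinase, was noticed after its values were seen and stood at 7.32 and 15.2 RPKM (0.446 and 1.88 in wild type). It also marks the edge of the rule, with Pnkd just inside (log2 1.02) and Cdkn2a (17.1 and 34.2 RPKM, 0.98) and Sema7a (0.97) just outside.

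**Figure D5:**
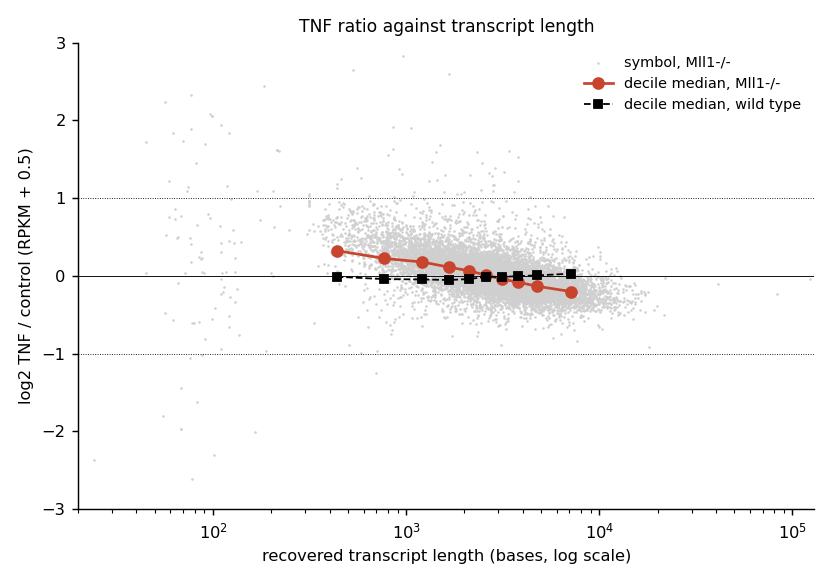
Log2 TNF/control ratio of each gene symbol in the libraries labelled Mll1-/- against its recovered transcript length (bases, log axis). Red points join the medians of 10 length classes in Mll1-/-, and black squares those of the same genes in wild type. The Mll1-/- medians go from 0.33 in the shortest class to -0.20 in the longest, and the wild-type medians stay near 0.

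Of the 20 entries lower by the size rule, 16 were in the shortest length class and 0 in the longest. Named genes at 10 RPKM or more had no decrease that large, and those lowest were mostly long. Of 5868 named genes with 10 RPKM or more, 28 had a log2 ratio under -0.5, with a median length of 5457 bases. The counting interval excluded 1 in all 28, and 23 of the 28 were also below 0 in wild type, as were 54.5% of all members. Only 9 stayed under -0.5 with the length trend removed. Ahnak, a very large scaffold protein of the cell cortex with a transcript of 18099 bases, was lowest at 184 and 96.8 RPKM (66725 and 33833 reads), a ratio of 0.527 (interval 0.521 to 0.534), and stayed at -0.60 with the trend removed. Dixdc1, a regulator of Wnt signalling, was at 12.5 and 6.97 RPKM (-0.80, and -0.65 with the trend removed). Crybg1 followed at 18.8 and 11.4 RPKM (-0.69 and -0.50). The next, Dipk2a (28.98 and 18.3 RPKM), Ston1, an endocytic adaptor (20.95 and 13.3 RPKM), Tram2, a protein of collagen synthesis (14.2 and 8.98 RPKM), Masp1, a protease of the lectin complement pathway (13.2 and 8.38 RPKM), Nacc2 (11.5 and 7.42 RPKM) and Zc2hc1a (22.3 and 14.7 RPKM), lay between -0.65 and -0.58. In wild type Tram2 had the opposite sign (3.04 and 3.65 RPKM).

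A shorter gene that was lower against the trend was the long noncoding RNA Rbm3os (841 bases), at 27.2 and 16.7 RPKM, with -0.69 as deposited and -0.92 with the trend removed. The counting does not state strand, so reads of Rbm3os and of an overlapping gene cannot be told apart. Cd248, a stromal cell surface protein, was at 10.6 and 6.95 RPKM (-0.58 both ways), and at 18.2 and 11.5 RPKM in wild type. Inhba, which encodes the activin A subunit, was at 13.5 and 9.79 RPKM (-0.45 and -0.57). Eif4ebp3 (741 bases) was at 10.0 and 7.27 RPKM on 149 and 104 reads (-0.44 and -0.68). Ate1 was at 13.7 and 10.1 RPKM (-0.43 and -0.56) and Eif4ebp2 at 60.3 and 43.8 RPKM (-0.46 and -0.55). The 28 measured genes of cholesterol and fatty acid synthesis had a median of -0.12 (-0.10 with the trend removed), with 0 past the rule and Acaca, the first enzyme of fatty acid synthesis, lowest at 14.01 and 10.3 RPKM. Of 42 genes of DNA replication and mitosis 0 were past the rule (median 0.02), with Cdk1 at 98.5 and 137 RPKM (0.47) and Mki67 at 49.4 and 35.5 RPKM (-0.47).

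Against the wild-type response measured in the same way, 68 of the same 13891 members (0.49%) were higher by the rule in wild type and 4 (0.0288%) lower. Of the 34 named higher genes with 3 RPKM or more in Mll1-/-, 21 had a ratio past the rule in wild type and 21 had the smaller log2 ratio in Mll1-/-. The 34 were chosen by their ratio in Mll1-/-, where ratios also fall with length, and the share over all members was not computed. The second count is therefore not read as a difference in response. In 6 the wild-type ratio was below 0: Mt1, Mt2, Uqcr11, Pnkd and the histone genes H4c3 and H4c18, all short. The H4 genes may share reads with near-identical copies, which was not tested, and are uncertain. These differences between the genotypes were not tested, since each value is 1 library.

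The other 2 of the 25 leading genes were Snhg9 and Wdyhv1. Snhg9, a host gene of small nucleolar RNAs, was at 0.272 and 3.68 RPKM on 1 and 13 reads, 13.5-fold with an interval of 2.03 to 575. Wdyhv1, an amidase of the N-end rule pathway, was at 2.72 and 8.42 RPKM (74 and 220 reads), 3.09-fold (2.37 to 4.08).

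By absolute gain the order was different, and abundant short transcripts led. Among named genes the largest gains in RPKM were those of Rps12 (1966 to 3129 RPKM), Rpl41 (1555 to 2638) and S100a4 (1332 to 2385), a calcium-binding protein of fibroblasts. Ccl2 gained 497 RPKM, and Cxcl1, first by log2 ratio, gained 58.8 RPKM. The largest losses were those of Hsp90aa1 (1166 to 1031 RPKM), Actb (4442 to 4309) and Pabpc1 (1218 to 1099). Of 14 housekeeping genes 0 were past the size rule, with ratios from -0.25 for Ywhaz to 0.74 for B2m, itself a gene of MHC class I.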

How the data were processed

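RNA was measured in 4 libraries, of which the 2 labelled Mll1-/- were compared. The deposited values are RPKM per transcript entry, per the file headers. The submitters' processing notes name TopHat and DESeq without version or role, and neither genome build nor annotation is given in the sources used here. RPKM values were whole multiples of the worth of 1 read, and in all 27344 entries they gave whole reads within 0.0001 reads, from which library totals, transcript lengths and counting intervals were taken. For 1227 entries reads were multiplied to match the GENCODE M21 length, and 79.0% of 20661 lengths lay within 10% of it. Summed over entries, reads came to 1.67 to 1.77 times the totals. A count test was not run, because each group is 1 library.

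RefSeq tables named 20849 entries and GENCODE 102, while 6393 stayed unnamed. Each symbol kept 1 entry, that of highest mean RPKM in the 4 libraries. Entries numbering 3106 shared all 4 values with another. Genes with 1 RPKM or more in either library were compared as log2(RPKM + 0.5), and a log2 ratio of 1 in size was called. The length trend was a lowess curve (fraction 0.3) over log length (Python 3.11.15, statsmodels 0.14.6, scipy 1.17.1), tested on simulated data. Genes were named from the 25 highest ratios at 3 RPKM or more, the 10 lowest at 10 RPKM or more as deposited and again without the trend, the 8 largest gains and losses, the 4 highest and 2 lowest of each of 42 lists (1103 symbols) with any member past the rule, and fixed TNF pathway and metallothionein genes. Genes outside this rule were chosen after their values were seen. The members and lists were chosen with earlier results of these data known. The dose is from the design text and sample labels, and the treatment protocol gives the figure in another unit. Alternatives were other pseudocounts, filters, scalings, entry choices, recovered reads and the removed trend.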

Additional observations from a re-analysis of the deposited data

Results flagged for a closer look

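Mt1 and Uqcr11 had log2 TNF ratios of opposite sign in the 2 genotypes, with counting intervals that exclude 1 in both. Their wild-type ratios lay within the middle 95% of all members in wild type (-0.35 to 0.44). Of all members, 54.5% were below 0 in wild type. The log2 TNF ratio of Mt1, a metallothionein, was 1.25 in Mll1-/- and -0.20 in wild type. That of Uqcr11, a small subunit of respiratory complex III, was 1.18 in Mll1-/- and -0.13 in wild type. With the length trend removed the Mll1-/- values were 0.97 and 0.85. Pnkd met the same description, with 1.02 in Mll1-/- (0.75 with the trend removed) and -0.40 in wild type. Its counting intervals were 1.53 to 3.08 in Mll1-/- and 0.578 to 0.958 in wild type, and its wild-type ratio lay below the middle 95%. Each value rests on 1 library per condition, and the difference between the genotypes was not tested.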

How the results depend on the processing

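No paired analysis was possible because each group is 1 library, and for the same reason no replicate could be left out. Against 97 genes higher and 20 lower, a pseudocount of 0.1 RPKM gave 146 and 42, recovered reads with 0.5 added gave 161 and 45, and a pseudocount of 1 RPKM gave 11 lower. A filter of 3 RPKM gave 5 lower. Removing the length trend gave 59 and 51, with a span of the medians of -0.003974 in place of 0.527, which follows from its construction. Settings chosen after seeing the data were median-ratio scaling with the trend removed (59 and 51, span -0.004628) and a filter of 10 RPKM (33 and 1). Leaving out the 20 most abundant genes gave 70 and 30, so that 70.0% rather than 82.9% of calls were higher, against 53.6% with the trend removed. Of the 25 leading genes, all stayed past the rule under every other setting that gave them a value, Mt1, Uqcr11 and Cox17 fell under it with the trend removed, and Cox17 fell under it with the 20 genes left out. The 10 RPKM filter left 11 of the 25 without a value. Depth limits the lower calls, of which 18 of 20 had fewer than 30 reads.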

Other observations

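The gene groups in this paragraph had no member past the size rule in the libraries labelled Mll1-/-. Among 16 measured Mll1 family methyltransferases and partners 0 were past the size rule, with a median of -0.14 that was 0.00 once the length trend was removed. Kmt2d stood at 4.40 and 3.24 RPKM (log2 -0.39) and the complex subunit Dpy30 at 38.8 and 48.1 RPKM (0.31). Of 35 genes of the Atf4 and unfolded protein response 0 were past the rule (median 0.03), the highest being the stress transcription factor Ddit3 at 11.8 and 21.3 RPKM (0.82). Of 19 p53 targets 0 were past it, with Gadd45a highest at 5.04 and 9.39 RPKM (0.84). The 20 genes of glycolysis and hypoxia and the 17 heat shock protein genes had a median of 0.06 each and none past the rule. Of 31 genes of the constitutive proteasome 27 had a ratio above 0 with a median of 0.23, and 19 with a median of 0.04 without the length trend.

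Few epithelial or endothelial markers reached 1 RPKM, whereas 3 of 10 neural and 4 of 8 skeletal muscle markers in the table did. Of 10 epithelial markers in the table only Krt19 reached 1 RPKM (24.2 and 21.2), and of 9 endothelial markers only Flt1 did (1.28 and 1.35). The cytoskeletal genes Tubb3 and Nes, which also mark nerve or precursor cells, were at 34.2 and 37.4 RPKM and at 61.4 and 48.0 RPKM, and Map2 at 8.12 and 6.39 RPKM, which gives the 3 a median log2 ratio of -0.32 (-0.17 with the length trend removed), while the glial marker S100b was listed at 0. The muscle genes Acta1 (203 and 208 RPKM) and Tnnt2 (34.2 and 36.2 RPKM) were measured, as were Des (3.78 and 2.99 RPKM) and Actc1 (1.18 and 0.969 RPKM), and none of the 4 had a ratio above 0 with the length trend removed. Ckm was listed at 0.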
